A study of Rattus norvegicus with 145 samples.

Results

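The 9 genes Ccnd1, Ccnd2, Ccnd3, Ccne1, Ccne2, Ccna2, Ccnf, Ccnb1 and Ccnb2, which encode the cyclins D, E, A, F and B, were followed in the liver of Wistar rats gavaged daily with acetamide. They were chosen by symbol, and all 9 are among the 17337 genes of the 5 raw count tables and passed the filter on low counts in every table. Experiment A used males of the strain Hsd:WI, 9 to 10 weeks of age, which for 7 days received doses, in mg/kg/day (mkd), of 0 (controls), 30, 100, 300 and 1000. Experiment B used males and females of the strain Crl:WI, 8 to 10 weeks of age, given 0, 300, 500, 750, 1000 or 1500 mkd for 7 or 28 days. The control rats received the water vehicle, and the left liver lobe was taken after an overnight fast on day 8 or day 29. Each of the 29 groups held 5 rats, and the 5 data sets are named below by sex and day, with experiment A named as such and the other 4 from experiment B. The labels of the 5 control males of day 29 give the first exposure experiment, while their titles, strain, age and count table are those of experiment B, and they were grouped by title, so every comparison of males on day 29 rests on that.

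Cyclins are the regulatory subunits of the cyclin-dependent kinases (CDKs), and each is made and destroyed at a set point of the cell division cycle. D cyclins bind CDK4 and CDK6 in G1 in answer to growth signals, E cyclins bind CDK2 at the start of S phase, cyclin A2 binds CDK2 and CDK1 from S phase into G2, and B cyclins bind CDK1 to drive mitosis. Cyclin F binds no CDK and is the substrate receptor of a ubiquitin ligase that is active in G2. In the adult liver nearly all hepatocytes rest outside the cycle, while cyclin D1 can be made without division and its mRNA is known to follow feeding and the loss of liver mass.

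Levels are given as CPM, read counts scaled to the same total on genes in every rat, after TMM scaling, which corrects for RNA composition, and they are compared between rats and not between genes. Each rat had 15449700 to 39986500 reads on genes, to 6 digits, and Ccna2, the cyclin with the fewest reads, had 6 to 1889 per rat with a median of 48. Ccnb1 had 13 to 5076 reads, with a median of 115, and Ccnd1 had 567 to 15267. The male and female labels matched the sex-linked and sex-specific liver genes in every rat. In 3 data sets a highest-dose library stood apart. These were replicates 2 and 4 at 1000 mkd in experiment A, whose median correlations with the other rats were 0.907 and 0.937, replicate 3 of the males at 1500 mkd on day 29 (0.930), and replicates 2 and 3 of the females at 1500 mkd on day 29 (0.947 and 0.958). All other libraries of those data sets were at 0.951 or more. The lowest of these, replicate 5 at 1000 mkd in experiment A, was kept in the fits without replicates 2 and 4. Results are given with and without the libraries that stood apart where leaving them out ended a call.

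Markers of liver cell types moved with the highest doses in the same 3 data sets. The summed level of 10 hepatocyte markers was 272293 to 360726 CPM in the controls of experiment A and 86968 to 266606 at 1000 mkd, and in females on day 29 it was 211794 to 405280 in controls and 103731 to 211072 at 1500 mkd. The range in males on day 29 was 214348 to 268576 in controls and 128566 to 240407 at 1500 mkd, the lowest value being that of replicate 3. The 10 markers of T and NK cells summed to 5.94 to 7.15 CPM in controls and 8.76 to 25.6 at 1000 mkd in experiment A, and 10 macrophage markers to 467 to 1313 and 1047 to 1849. The 8 erythroid markers of experiment A summed to 171 to 259 CPM in controls and 20.8 to 92.5 at 1000 mkd. At 300 mkd their sum was already 71.1 to 161 CPM. The 3 B cell markers summed to 0.82 to 2.57 CPM in these controls and 0.739 to 1.42 at 1000 mkd. The part of these shifts in the cyclin levels was not tested, and in pieces of whole liver fewer cells of a type and less RNA per cell cannot be told apart.

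A cyclin was called where it changed at least 1.5-fold and its adjusted p was 0.05 or lower (edgeR, adjusted over all genes tested). Of the 216 combinations of 9 cyclins and 24 dose groups, 23 were called, and every call was a rise. The share of all genes called is given below with the counts of each data set. In every group with a called cyclin, rises also outnumbered falls among all genes called. They numbered 1580 and 844 at 1000 mkd in experiment A, and 1093 and 405 at 1500 mkd in females on day 29. The cyclin calls fell at 1000 and 1500 mkd and on the cyclins of S phase, G2 and mitosis more than on those of G1. Ccnb1 was called in 6 of its 24 comparisons, Ccna2 in 5, Ccnb2 in 4, Ccnf in 3 and Ccnd1 in 2, while Ccnd2, Ccne1 and Ccne2 were each called in 1 and Ccnd3 in 0. Ccnd3 was also called in 0 of the 5 highest-dose comparisons by DESeq2.

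**Figure D1:**
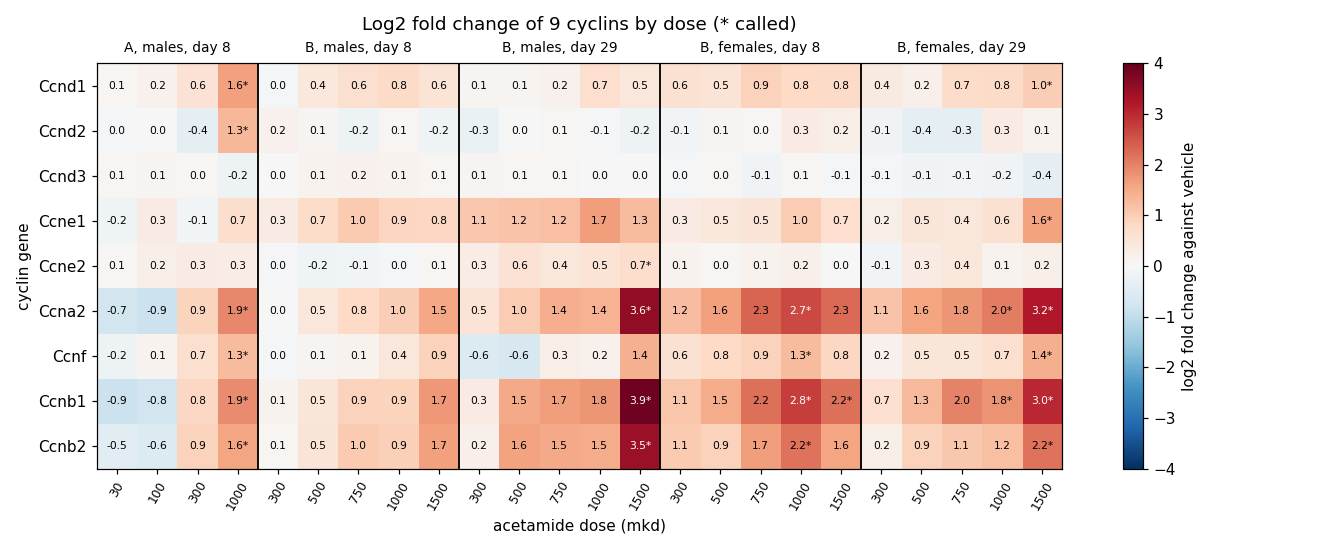
Log2 fold change of each cyclin (rows) at each dose in mkd (columns) against the vehicle control of its data set, with 5 rats per group; red is higher, blue is lower, and a star marks a call. The stars lie at 1000 and 1500 mkd and mostly in the rows of Ccna2, Ccnf, Ccnb1 and Ccnb2, and the highest value is 3.90 for Ccnb1 in males on day 29.

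In experiment A 6 of the 9 cyclins were called at 1000 mkd, where 21.4% of all genes tested were, and 0 at 30, 100 and 300 mkd, where the share of all genes was 0%. Without replicates 2 and 4 at 1000 mkd 1 was left, Ccnd1, against 7.48% of all genes, and without the rats of replicate 4 in every group 2 were, Ccnd1 and Ccnf, against 12.9%. The cyclins called in males on day 8 numbered 0 at every dose, against 0% of all genes at 300 to 1000 mkd and 0.177% at 1500 mkd. At 1500 mkd 4 of them had an unadjusted p under 0.05 (edgeR), as 12.6% of all genes did, and DESeq2 called 2, against 1.41% of the genes it gave an adjusted p. The count was 4 in males on day 29 at 1500 mkd, against 4.91% of all genes, and 0 at 300, 500, 750 and 1000 mkd, against 0%, 0%, 0.780% and 2.76%. At 1500 mkd it was 2, Ccnb1 and Ccnb2, without replicate 3 of that dose, against 6.08% of all genes. It was 0 without the rats of replicate 3 in every group, against 1.87%. With the control and that dose alone in the fit it was 1, against 210 of 10857 genes. It was 4 in females on day 8 at 1000 mkd and 1 at 1500 mkd, against 1.37% and 0.705%, and 0 at 300, 500 and 750 mkd, against 0.00870%, 0.0174% and 0.0174%. The cyclin calls of this data set depended on the rats of single replicate numbers. None was left at either dose without the rats of replicate 1, 3 or 5, and 0 at 1500 mkd without those of replicate 2 or 4. The share of all genes at 1500 mkd was 0.800%, 0.00870%, 0%, 0.0174% and 0.531% without replicates 1 to 5 in turn. At 1000 mkd it was not computed for these fits. The count was 2 in females on day 29 at 1000 mkd and 6 at 1500 mkd, against 1.59% and 13.1%, and 0 at 300, 500 and 750 mkd, against 0%, 0.0349% and 0.183%. The count at 1500 mkd was 3, Ccna2, Ccnb1 and Ccnb2, without replicates 2 and 3 of that dose, against 2.60%. Without the rats of replicate 1, 3 or 4 the cyclin calls at 1000 mkd in these females numbered 0, and the share of all genes was not computed. The median log2 fold change of the 9 cyclins at the highest dose lay between 0.77 and 1.45 in the 5 data sets, while that of all genes was at most 0.07.

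The promoters of 5 of the 9 genes could be read from RefSeq (build GRCr8, later than the Rn6 build the reads were counted on), and the stretch just before the start is printed for Ccnb1, Ccnb2 and Ccnf because all 3 had a rising trend with dose in at least 4 of the 5 data sets, as given below. All 3 lie on the minus strand and are written 5′ to 3′ along the gene, the last base being the one before the transcription start. Capitals mark CCAAT, the box bound by NF-Y, and TTTGAA or TTCGAA, the core of the cell cycle homology region (CHR) that the DREAM and MuvB complexes bind, each searched on both strands.
Ccnb1 (chr2:33655226-33655325, bases -100 to -1): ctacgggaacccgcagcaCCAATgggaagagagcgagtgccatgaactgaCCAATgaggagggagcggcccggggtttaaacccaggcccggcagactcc
Ccnb2 (chr8:79981659-79981878, bases -220 to -1): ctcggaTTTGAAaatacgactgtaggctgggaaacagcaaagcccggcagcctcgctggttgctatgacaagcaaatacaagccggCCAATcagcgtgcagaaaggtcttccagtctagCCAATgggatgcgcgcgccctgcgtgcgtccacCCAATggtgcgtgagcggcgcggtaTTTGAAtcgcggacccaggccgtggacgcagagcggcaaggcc
Ccnf (chr10:13783670-13783889, bases -220 to -1): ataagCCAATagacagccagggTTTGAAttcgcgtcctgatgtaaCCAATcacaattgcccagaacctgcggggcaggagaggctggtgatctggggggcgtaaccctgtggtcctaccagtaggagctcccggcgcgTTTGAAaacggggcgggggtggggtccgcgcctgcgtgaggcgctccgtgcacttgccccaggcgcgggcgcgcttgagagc
In the 250 bases before the start, Ccnb2 held 3 CCAAT boxes, at -134, -101 and -68, and CHR letters at -214 and -43. Ccnf held 2 CCAAT boxes, at -215 and -175, and CHR letters at -198 and -82, while Ccnb1 held 2 CCAAT boxes, at -82 and -50, and no CHR letters in this window. Ccnd3 had 1 CCAAT box at -132 and no CHR letters, and Ccne1 had neither. Of all 33469 rat promoters of this length in the table, 34% held CCAAT and 17.4% the CHR letters, so that a match is a description of the letters and not of a bound site. The promoters of Ccnd1, Ccnd2, Ccne2 and Ccna2 were not used here.

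Ccnb1, the B cyclin that activates CDK1 at the entry into mitosis, rose in 4 of the 5 data sets. The control females of day 29 had 0.817, 1.18, 1.84, 0.571 and 1.84 CPM, listed by replicate number here and below, and the rats at 1500 mkd had 10.8, 9.38, 11.3, 14.5 and 4.81. All 5 treated rats lay above every control, and the log2 fold change was 3.02 ± 0.46 (SE, adjusted p = 0.000125), an 8.11-fold rise. At 1000 mkd the same sex had 2.96, 4.79, 3.76, 6.43 and 3.55 CPM, again all above the controls (1.78 ± 0.45, adjusted p = 0.0378). At 750 mkd the 5 rats, at 3.5 to 8.13 CPM, already lay above every control, with an adjusted p of 0.0558 that missed the threshold.

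Ccnb1 in females on day 8 stood at 1.16, 2.05, 0.552, 1.35 and 0.932 CPM in controls and at 6.16, 3.76, 5.31, 9.29 and 16.7 at 1000 mkd, a log2 fold change of 2.76 ± 0.55 (adjusted p = 0.0177). At 1500 mkd the values were 3.72, 3.28, 4.87, 13.2 and 3.56 CPM (2.22 ± 0.55, adjusted p = 0.047). Replicate 4 was the high rat at 1500 mkd, and without it the adjusted p was 0.158. At both doses all 5 treated rats lay above every control, and the mean was higher at 1000 mkd than at 1500 mkd, 8.25 against 5.72 CPM, with ranges that overlapped.

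The Ccnb1 controls in males on day 29 had 3.72, 1.01, 2.34, 2.56 and 1.11 CPM and the rats at 1500 mkd 7.52, 6.71, 137, 8.24 and 1.42. Replicate 3, the library that stood apart, was more than 10 times as high as any other rat of the group, and replicate 5 lay within the controls. The log2 fold change was 3.90 ± 0.77 with it (adjusted p = 0.00834) and 1.40 without it (adjusted p = 0.0335). At 500, 750 and 1000 mkd all 5 males lay above every control, at 4.11 to 10.5, 3.94 to 11.3 and 5.03 to 12.7 CPM. The adjusted p at these doses were 0.353, 0.171 and 0.127.

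The males of experiment A had 1.19, 2.25, 1.29, 4.15 and 9.38 CPM of Ccnb1 in controls and 11.4, 11.3, 10.3, 25.7 and 9.68 at 1000 mkd, with all treated rats above the highest control (1.89 ± 0.55, adjusted p = 0.0129). Without replicates 2 and 4, the libraries that stood apart, the log2 fold change was 1.53 and no longer called (adjusted p = 0.119). In males of experiment B on day 8 the controls spread from 1.2 to 11.1 CPM and the rats at 1500 mkd from 6.44 to 24.1. The groups overlapped, and the log2 fold change of 1.73 ± 0.52 was not called (adjusted p = 0.117).

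Ccna2, the A cyclin of S phase and G2 in body cells, rose in the same 4 data sets as Ccnb1. Females on day 29 had 0.544, 0.459, 0.545, 0.245 and 0.72 CPM without acetamide and 4.02, 6.17, 6.29, 5.26 and 1.45 at 1500 mkd, where every treated rat exceeded the controls (3.20 ± 0.47, adjusted p = 8.13e-05). Replicate 5 was the low rat of the treated group. At 1000 mkd the values were 1.37, 2.63, 1.63, 3.13 and 1.63 CPM (2.04 ± 0.47, adjusted p = 0.0253), and at 500 mkd, the lowest dose without overlap, 1.17, 0.875, 2.32, 1.66 and 1.47 CPM (adjusted p = 0.207). The lowest control value rests on 6 reads, so single low values carry large counting error.

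Ccna2 in females on day 8 was 0.232, 0.899, 0.425, 0.963 and 0.349 CPM in controls, 3.05, 1.91, 1.97, 3.8 and 7.24 at 1000 mkd and 1.8, 1.04, 2.79, 6.2 and 2.08 at 1500 mkd. No treated rat of these doses overlapped the controls. The rise was called at 1000 mkd (2.65 ± 0.57, adjusted p = 0.0195) and missed the threshold at 1500 mkd (2.25 ± 0.57, adjusted p = 0.0554).

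Ccna2 in males on day 29 went from 1.77, 0.525, 1.25, 1.11 and 0.334 CPM in controls to 2.37, 2.02, 51, 2.82 and 0.644 at 1500 mkd. The call (3.55 ± 0.78, adjusted p = 0.0109) rests on replicate 3, since without that rat the log2 fold change was 0.89 (adjusted p = 0.168). Males of experiment A had 0.561, 1.23, 0.302, 1.81 and 3.51 CPM in controls and 4.59, 5.15, 4.38, 9.93 and 4.11 at 1000 mkd (1.91 ± 0.53, adjusted p = 0.00951). Replicate 4 was the high rat, and without replicates 2 and 4 the value was 1.56 and not called (adjusted p = 0.1). The males on day 8 had a log2 fold change at 1500 mkd of 1.54 ± 0.45 (adjusted p = 0.114), with 3 of 5 rats above every control.

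**Figure D2:**
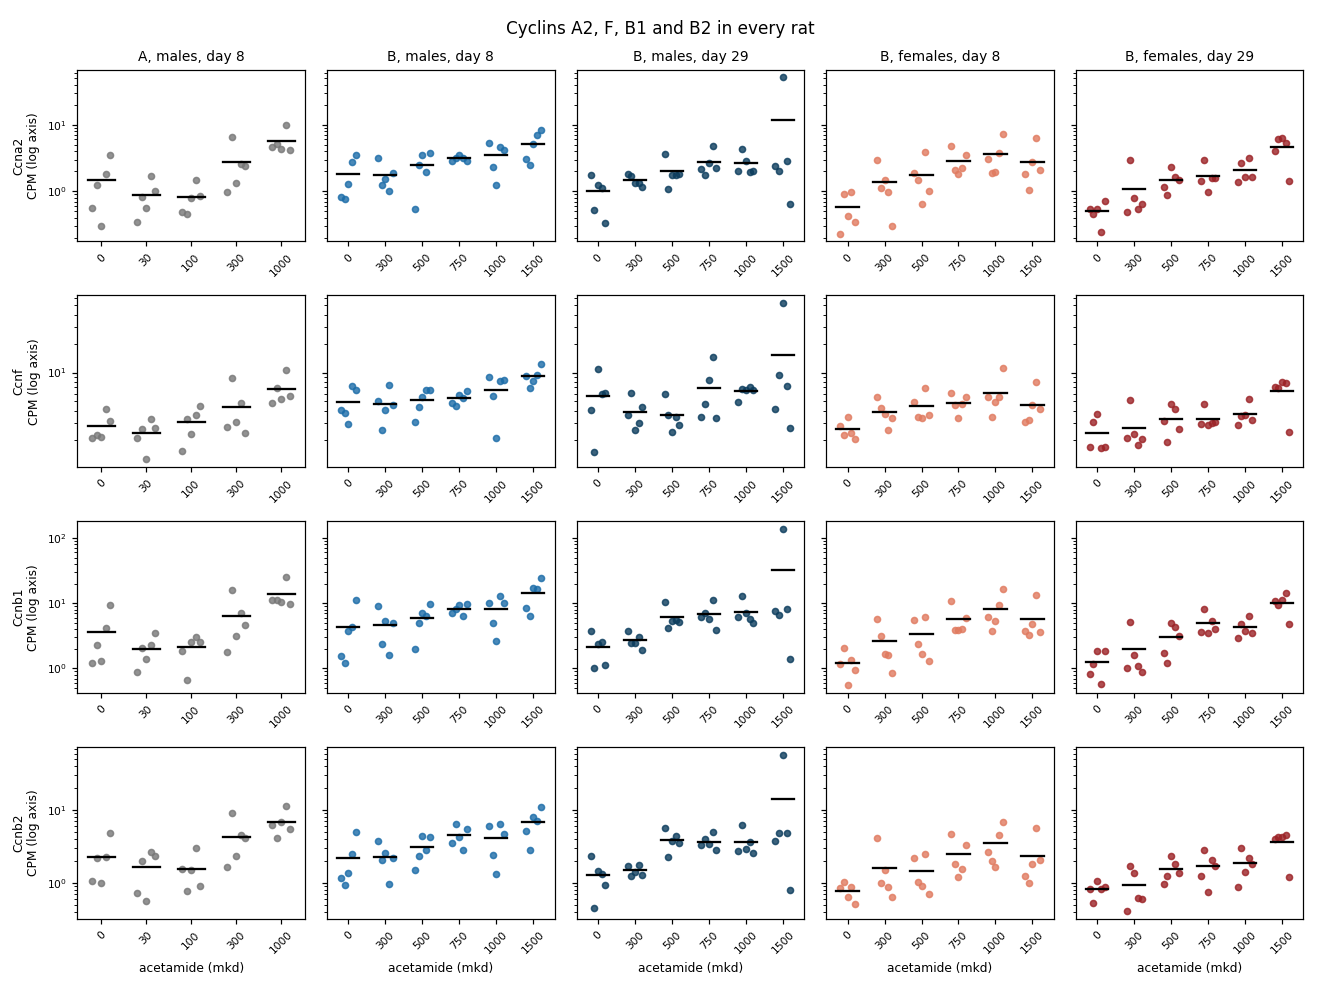
CPM (log axis) of Ccna2, Ccnf, Ccnb1 and Ccnb2 in every rat by dose in mkd, 1 column per data set; points are rats, in order of replicate number within a dose, and bars are group means. In males on day 29 the point of replicate 3 at 1500 mkd, 137 CPM for Ccnb1, stands far above the rest, and in females on day 29 Ccnb1 lies at 4.81 to 14.5 CPM at 1500 mkd and at 0.571 to 1.84 in controls.

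Ccnb2, the second B cyclin, which is found at the Golgi apparatus, was called in 4 of 24 comparisons. Females on day 29 had 0.817, 0.524, 1.05, 0.815 and 0.88 CPM in controls and 4.05, 4.32, 4.21, 4.58 and 1.19 at 1500 mkd (2.18 ± 0.40, adjusted p = 0.000652). The 4 other treated rats lay within 0.6 CPM of each other while replicate 5 lay just above the highest control. Females on day 8 had 0.851, 1.03, 0.637, 0.867 and 0.505 CPM in controls and 2.63, 1.98, 1.65, 4.61 and 6.82 at 1000 mkd (2.19 ± 0.54, adjusted p = 0.0349). The 2 groups did not overlap.

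Ccnb2 in males on day 29 was 2.33, 0.45, 1.45, 1.31 and 0.928 CPM in controls and 3.76, 4.82, 57.5, 4.84 and 0.799 at 1500 mkd, with replicate 3 again far above the other rats. The log2 fold change was 3.46 ± 0.69 (adjusted p = 0.00834) with that rat and 1.38 (adjusted p = 0.0294) without it. Males of experiment A had 1.05, 2.21, 0.983, 2.29 and 4.86 CPM in controls and 6.29, 4.13, 6.83, 11.4 and 5.55 at 1000 mkd, and 4 of the 5 lay above every control (1.58 ± 0.49, adjusted p = 0.0174). Without replicates 2 and 4 the adjusted p was 0.0929. For males on day 8 the value at 1500 mkd was 1.65 ± 0.45 (adjusted p = 0.0854).

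Ccnf, which encodes the receptor subunit of a ubiquitin ligase of G2, had lower log2 fold changes than Ccna2, Ccnb1 and Ccnb2 in the 3 groups where it was called. Females on day 29 had 1.67, 3.08, 3.73, 1.63 and 1.68 CPM in controls and 7.03, 6.91, 7.96, 7.82 and 2.38 at 1500 mkd (1.45 ± 0.32, adjusted p = 0.00299). As with Ccna2 and Ccnb2, replicate 5 was the low rat, and here it fell among the controls. Without replicates 2 and 3 of that dose the log2 fold change was 1.29 and not called (adjusted p = 0.0521). Females on day 8 had 2.78, 2.25, 3.48, 2.36 and 2.06 CPM in controls and 5.57, 3.42, 4.96, 5.62 and 11.2 at 1000 mkd (1.26 ± 0.29, adjusted p = 0.0271). Males of experiment A went from 2.1, 2.25, 2.12, 4.15 and 3.15 to 4.88, 6.89, 5.35, 10.5 and 5.72 CPM at 1000 mkd, with no overlap (1.27 ± 0.34, adjusted p = 0.00778).

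In experiment A Ccnf was not called without replicates 2 and 4 (0.96, adjusted p = 0.115). In males on day 29 the Ccnf controls were widely spread, at 4.03, 1.5, 10.9, 5.99 and 6.16 CPM, and the rats at 1500 mkd had 4.19, 9.34, 52.6, 7.18 and 2.65. The log2 fold change of 1.41 ± 0.58 was not called (adjusted p = 0.119), and without replicate 3 it was -0.05. At 1500 mkd the males on day 8 had 0.91 ± 0.30 (adjusted p = 0.164).

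Ccnd1, the D cyclin best known from liver regeneration, rose in 2 data sets. In experiment A the controls had 28.2, 43.8, 38.2, 49.9 and 100.4 CPM and the rats at 1000 mkd 112, 268, 97.9, 210.2 and 119.5, a log2 fold change of 1.63 ± 0.34 (adjusted p = 0.00141). Of the treated rats 4 lay above every control, the control of replicate 5 being the high one. This was the 1 cyclin of experiment A that stayed called without replicates 2 and 4, at 1.10 (adjusted p = 0.0491). Ccnd1 in females on day 29 was 82, 169, 99.6, 72.8 and 74.9 CPM in controls and 169.7, 253, 212, 207 and 149.6 at 1500 mkd (0.99 ± 0.26, adjusted p = 0.00851), and without the replicates 2 and 3 of the highest dose the adjusted p was 0.12.

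In the other 3 data sets Ccnd1 at the highest dose gave log2 fold changes of 0.55 in males on day 8, 0.46 in males on day 29 and 0.77 in females on day 8, with adjusted p from 0.153 to 0.494. Its sign was positive in 23 of the 24 comparisons, which share their controls within a data set. Rats of the same group differed widely, as in the control males on day 8 with 35.6, 68.1, 107, 165 and 82.1 CPM.

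Ccnd2, a D cyclin abundant in lymphocytes and many other non-parenchymal cells, was called in experiment A alone. Its controls there had 1.12, 1.02, 0.983, 1.32 and 1.54 CPM and the rats at 1000 mkd 1.08, 5.68, 1.83, 4.65 and 1.76 (1.33 ± 0.36, adjusted p = 0.00815). Replicates 2 and 4 were the high rats. By replicate number the T and NK cell markers summed to 8.76, 25.6, 11.9, 24.1 and 23.2 CPM in these 5 rats, and 7 endothelial markers to 150.5, 259.8, 137, 219 and 234 CPM, against 78.8 to 169.8 in controls. Replicate 5 thus had marker sums near those of replicates 2 and 4 with 1.76 CPM of Ccnd2, and the part of the markers in its level was not tested. Without replicates 2 and 4 the log2 fold change was 0.40 (adjusted p = 0.455). In the 4 data sets of experiment B the log2 fold changes at 1500 mkd lay between -0.20 and 0.22, with the lowest adjusted p at 0.686.

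Ccnd3, the third D cyclin, varied little between rats and was not called at any dose. In females on day 29 it was 32.5, 32.2, 30.4, 35.6 and 33.2 CPM in controls and 28.7, 23.9, 22.3, 25.9 and 25.8 at 1500 mkd, with all 5 treated rats below every control. The log2 fold change of -0.37 ± 0.09 had an adjusted p of 0.00594 but lay under the fold threshold. In experiment A the values were 26.6, 29, 27.2, 27.6 and 27.9 CPM in controls and 26.1, 21.5, 27.5, 23.1 and 21.7 at 1000 mkd (-0.21 ± 0.09, adjusted p = 0.0692). In the other data sets the log2 fold change at the highest dose was between -0.07 and 0.08.

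**Figure D3:**
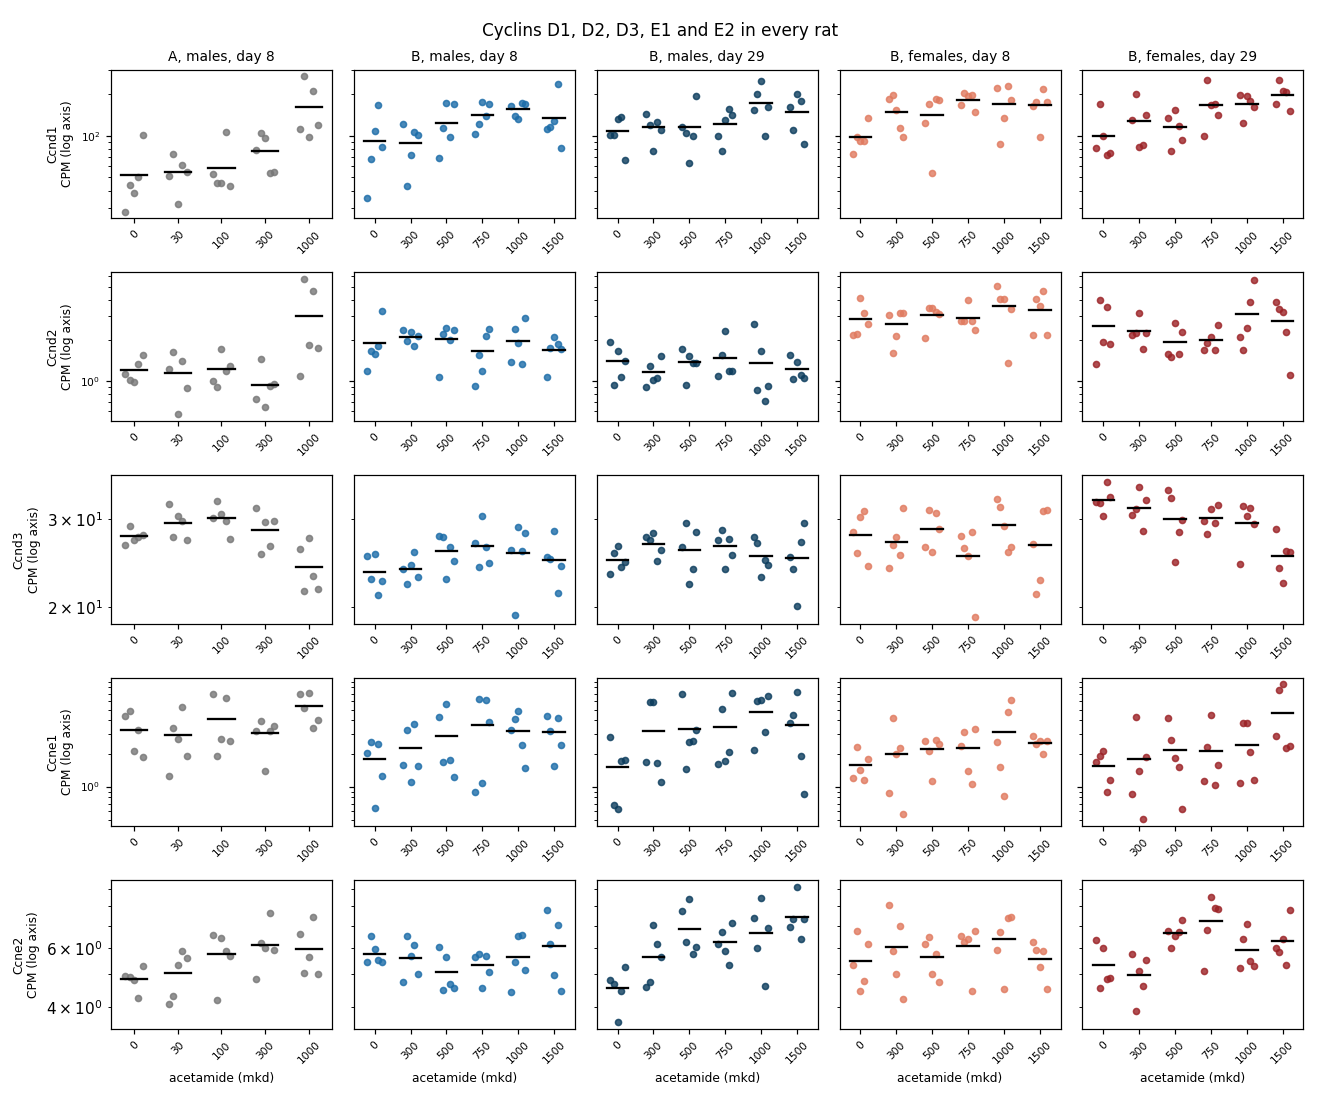
CPM (log axis) of Ccnd1, Ccnd2, Ccnd3, Ccne1 and Ccne2 in every rat by dose in mkd, 1 column per data set; points are rats, in order of replicate number within a dose, and bars are group means. Ccnd3 stays between 19.1 and 35.6 CPM in all groups, while Ccnd2 reaches 5.68 CPM at 1000 mkd in experiment A.

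Ccne1, the E cyclin that opens S phase with CDK2, was called in females on day 29. The controls had 1.67, 1.9, 2.1, 0.897 and 1.16 CPM and the rats at 1500 mkd 2.86, 7.62, 8.52, 2.22 and 2.34 (1.61 ± 0.54, adjusted p = 0.036). Replicates 2 and 3, which stood apart, carried the high values, and without them the log2 fold change was 0.68 (adjusted p = 0.563). In males on day 29 the controls had 2.82, 0.675, 0.627, 1.72 and 1.74 CPM and the rats at 1000 mkd 2.14, 5.99, 6.14, 3.16 and 6.68, with 4 of 5 above every control (1.67 ± 0.58, adjusted p = 0.0802). Rats of 1 group differed widely, as in males on day 8 at 750 mkd with 0.886, 6.33, 1.08, 6.15 and 3.87 CPM.

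Ccne2, the second E cyclin, was called in males on day 29, with 4.8, 4.69, 3.6, 4.47 and 5.27 CPM in controls and 6.94, 7.31, 9.15, 6.38 and 7.32 at 1500 mkd. The groups did not overlap (0.70 ± 0.16, adjusted p = 0.0113). At 500 and 750 mkd the 5 rats also lay above every control, at 5.74 to 8.43 and 5.34 to 7.11 CPM. Without replicate 3 at 1500 mkd the adjusted p was 0.0277 and the log2 fold change 0.55, just under the fold threshold. In the other 4 data sets the highest dose gave between 0.02 and 0.30, with adjusted p from 0.133 to 0.978.

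A linear trend with dose used all rats of a data set and was read at an adjusted p of at most 0.05 (edgeR). It was called for 7 cyclins in experiment A, 4 in males on day 8, 5 in males on day 29, 2 in females on day 8 and 7 in females on day 29. The shares of all genes with a trend were 45.9%, 2.52%, 24.5%, 5.44% and 27.3% in the same order. Ccna2 and Ccnb1 had a trend in all 5 data sets, with slopes per 1000 mkd of 1.10 ± 0.25 (males on day 8) to 2.39 ± 0.44 (experiment A) for Ccna2 and of 1.17 ± 0.27 (males on day 8) to 2.53 ± 0.38 (males on day 29) for Ccnb1, on the log2 scale with SE. Ccnb2 and Ccnf had one in 4 of 5, and in females on day 8 their adjusted p were 0.0584 and 0.0838. The cyclin trends of females on day 8 numbered 0 without the 2 libraries of lowest correlation in that data set, replicate 4 at 300 and at 1500 mkd. The slope was then 1.33 for Ccna2 (adjusted p = 0.0727) and 1.46 for Ccnb1 (adjusted p = 0.0513). In that fit 408 of 11558 genes had a trend, against 626 of 11497 with all rats. The cyclin trends of these females also numbered 0 without the rats of replicate 2, 3 or 4. Without the rats of replicate 4, the number of cyclin trends in males on day 8 was also 0. For the fits without a replicate number the share of all genes with a trend was not computed.

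Among the G1 and G1/S cyclins, Ccnd1 had a rising trend in experiment A (1.63 ± 0.25, adjusted p = 1.27e-05) and in females on day 29 (0.67 ± 0.15, adjusted p = 0.00127). Ccnd2 had one in experiment A (1.39 ± 0.29, adjusted p = 0.000312), Ccne1 in females on day 29 (1.01 ± 0.29, adjusted p = 0.00887) and Ccne2 in males on day 29 (0.40 ± 0.10, adjusted p = 0.00566). Ccnd3 was the 1 cyclin with a falling trend, of -0.28 ± 0.07 in experiment A (adjusted p = 0.00361) and -0.23 ± 0.05 in females on day 29 (adjusted p = 0.00197). Without replicate 3 at 1500 mkd, males on day 29 kept a trend for Ccne2, Ccnb1 and Ccnb2, and the adjusted p of Ccna2 and Ccnf were 0.0643 and 0.55. In that fit 3081 of 11303 genes had a trend, against 2765 of 11279 with all rats. Without the highest dose group 0 cyclin trends were called in experiment A and in males on day 8 (by edgeR). They numbered 4 in males on day 29, 4 in females on day 8 and 4 in females on day 29. The genes with a trend in these fits were 1 of 11077 in experiment A and 1 of 11242 in males on day 8. They were 2570 of 11195 in males on day 29, 513 of 11419 in females on day 8 and 1040 of 11334 in females on day 29.

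**Figure D4:**
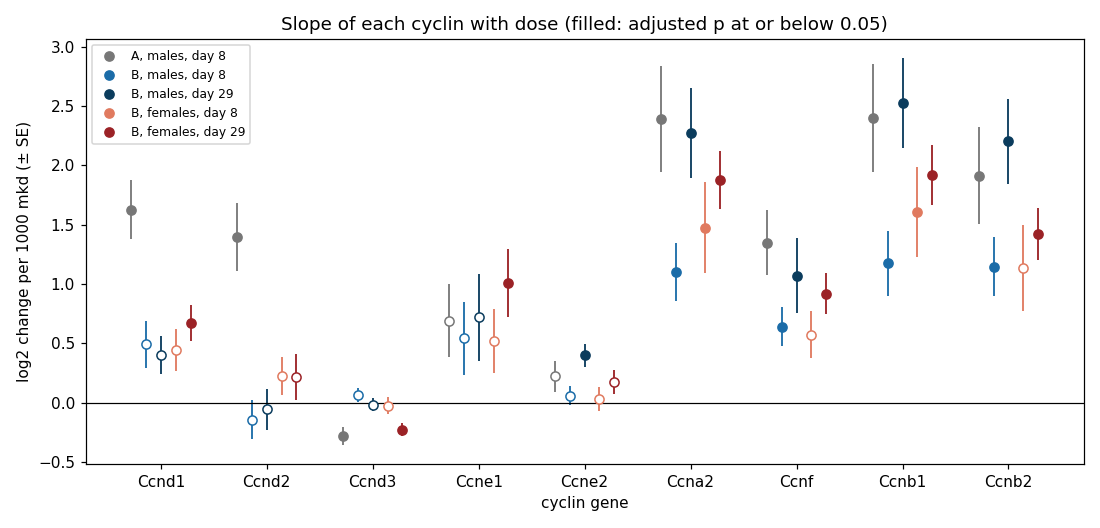
Slope of each cyclin with dose, as log2 change per 1000 mkd with its SE, in the 5 data sets (25 to 30 rats each); filled points have an adjusted p of at most 0.05. Ccna2 and Ccnb1 are filled in all 5 data sets, with slopes from 1.10 to 2.53, although those of both sexes on day 8 were lost without the rats of 1 replicate number, and Ccnd3 lies at or below 0.06 throughout.

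The order of the cyclins by log2 fold change was read within each of the 24 comparisons, as a description with no test. Ccna2 came first in 10, Ccnb1 in 6, Ccne1 in 4, Ccnb2 in 3 and Ccnd3 in 1, and Ccnb1 was among the first 3 in 22. At the highest doses Ccna2 and Ccnb1 were among the first 3 in all 5 data sets and Ccnd3 ranked no higher than 7. Ccnd2 was among the last 3 in 20 comparisons. The median of the B cyclins exceeded that of the D cyclins in 22 of 24 comparisons, the exceptions being 30 and 100 mkd in experiment A, and that of the E cyclins in 20. All doses of a data set share its controls, so the 24 comparisons are not independent.

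The lowest dose at which a cyclin was called was 1000 mkd for Ccna2, Ccnb1, Ccnb2 and Ccnf in females on day 8 and for Ccna2 and Ccnb1 in females on day 29. Ccnd1, Ccne1, Ccnf and Ccnb2 were first called at 1500 mkd in females on day 29, and so were Ccne2, Ccna2, Ccnb1 and Ccnb2 in males on day 29. Read by the rats alone, the lowest dose with all 5 rats above every control was 500 mkd for Ccna2 in females on day 29 and for Ccnb1 and Ccne2 in males on day 29, and 750 mkd for Ccna2, Ccnb1, Ccnb2 and Ccnd1 in females on day 8. The shares of all genes with all 5 rats above every control were 1.14% at 500 mkd in females on day 29, 2.09% at 500 mkd in males on day 29 and 1.90% at 750 mkd in females on day 8. The separation did not always hold at higher doses. In females on day 8 Ccnd1 overlapped the controls again at 1000 and 1500 mkd, and Ccnb2 at 1500 mkd. In males on day 29 Ccne2 overlapped them at 1000 mkd. Ccna2, Ccnb1 and Ccnb2, separate at 1000 mkd in these males, overlapped them at 1500 mkd.

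At the higher doses such a separation was seen for 3 cyclins at 1000 mkd in experiment A, against 9.01% of all genes. The cyclins above every control numbered 3, 3 and 1 at 750, 1000 and 1500 mkd in males on day 29, against 3.29%, 4.59% and 2.86%. They numbered 3 and 2 at 1000 and 1500 mkd in females on day 8, against 1.82% and 1.65%, and 2, 2 and 4 at 750, 1000 and 1500 mkd in females on day 29, against 1.72%, 2.79% and 3.51%. Ccnd3 in females on day 29 at 1500 mkd was the 1 cyclin with all 5 rats below every control, as were 2.62% of all genes.

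Within each rat the log2 ratio of Ccnb1 to Ccnd1 compares the mitotic with the G1 cyclin of that liver. Its change with treatment can be read, and its absolute value cannot, since it also depends on transcript length. In females on day 29 it moved from -6.29 ± 0.76 (SD, n = 5) in controls to -4.34 ± 0.48 at 1500 mkd, with all 5 treated rats above every control. In females on day 8 it moved from -6.33 ± 0.74 to -4.47 ± 0.63 at 1000 mkd, again with 5 of 5 above, and to -5.01 ± 0.78 at 1500 mkd, with 3 of 5 above. In experiment A the change was 0.56, less than the SD of 0.60 among controls, in males on day 8 it was 1.35 against an SD of 1.09, and in males on day 29 it was 1.86 against an SD of 0.64. Without replicate 3 the change in males on day 29 was 1.03, with 3 of the 4 remaining rats above every control.

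Whether the response to the highest dose differed between days or sexes was tested as a difference of 2 dose contrasts over all 120 rats of experiment B. The difference was called for 0 cyclins in each of the 4 tests (edgeR), as it was for 0%, 0.0169%, 0% and 0.466% of all genes (day 29 minus day 8 in males and in females, and females minus males on day 8 and on day 29). The response of Ccnb1 in males was 2.15 ± 0.81 higher on day 29 than on day 8 on the log2 scale (SE, adjusted p = 0.994), and the female response of Ccnb2 on day 29 minus the male was -1.26 ± 0.77 (adjusted p = 0.396). Of the 4 tests, unadjusted p under 0.05 were found for 4 cyclins between days in males, 1 between days in females, 0 between sexes on day 8 and 2 between sexes on day 29, while the shares of all genes were 4.64%, 7.86%, 4.32% and 17.2% in the same order. Replicate 3 of the males at 1500 mkd on day 29 bears on these tests. Without it the Ccnb1 response of males on day 29 minus day 8 was -0.31 (adjusted p = 0.964) and the Ccnb2 response of females minus males on day 29 was 0.78 (adjusted p = 0.476), so that both changed sign. With it the female minus male response of Ccna2 on day 29 was -0.32 ± 0.86 (adjusted p = 0.88), and without it the response was 2.29 higher in females than in males (adjusted p = 0.0354) and that of Ccnd3 -0.42 (adjusted p = 0.048). These 2 cyclins were called among 8.90% of all genes in that fit.

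At 1000 mkd on day 8 the males of experiment A and experiment B could be compared directly, although strain and experiment cannot be told apart. The response differed for 7.48% of all genes and for 0 of the 9 cyclins (edgeR), 2 of which, Ccnd2 and Ccnd3, had an unadjusted p under 0.05, as 25.0% of all genes did. Ccnd2 was 1.25 ± 0.45 higher in experiment A on the log2 scale (adjusted p = 0.0748), and Ccnd1 0.86 ± 0.47 (adjusted p = 0.257).

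Some of the late cyclins were called between the sexes in the vehicle controls of experiment B, but these calls depended on the rats of single replicate numbers. On a common scale for the 120 rats, Ccnb1 on day 8 was 1.65, 1.25, 3.94, 4.5 and 11.6 CPM in control males and 1.08, 1.92, 0.519, 1.25 and 0.87 in control females. The females were lower (-2.00 ± 0.62 log2, adjusted p = 0.0202), with overlap at the low male values. Ccna2 (-1.81 ± 0.63, adjusted p = 0.0463) and Ccnb2 (-1.65 ± 0.57, adjusted p = 0.0442) were also lower in control females on day 8. Thus 3 of 9 cyclins were called, against 8.00% of all genes, and without the rats of replicate 4 or of replicate 5 the count was 0. For the controls of both days, the share of all genes without a replicate number was not computed.

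On day 29 Ccnf was lower in control females (2.31 ± 0.947 CPM, SD, n = 5) than in control males (6.08 ± 3.7), by a log2 difference of -1.40 ± 0.42 (adjusted p = 0.0113). It was the 1 cyclin called on that day, against 12.1% of all genes, and without the rats of replicate 4 the count was 0. Ccnd3 was higher in control females, 32.1 ± 1.82 against 26.4 ± 1.44 CPM, with a log2 difference of 0.29 ± 0.10 under the fold threshold (adjusted p = 0.0288). Between the days the controls gave 0 calls among the cyclins (edgeR) in males, against 0.0169% of all genes, and in females, against 1.25%. At an unadjusted 0.05 there was 1 cyclin in males (Ccne2, -0.32 ± 0.15) and 1 in females (Ccnd3, 0.31 ± 0.10), against 10.6% and 19.7% of all genes.

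The other genes of the cycle were counted by list at the highest dose, in the order experiment A, males on day 8, males on day 29, females on day 8 and females on day 29. The shares of all genes called in these comparisons, in both directions, were 21.4%, 0.177%, 4.91%, 0.705% and 13.1%, and the counts of each list are to be read beside them. Of the genes that mark or carry out replication and division (Mki67, Top2a, Pcna and Mcm2), 3, 0, 2, 1 and 4 of 4 rose. Mki67 went from 4.85 ± 0.788 to 29.5 ± 11.1 CPM in females on day 29 (2.61 ± 0.35, adjusted p = 5.26e-05) and Top2a, a topoisomerase, from 2.14 ± 0.42 to 17 ± 7.46 (2.99 ± 0.47, adjusted p = 0.000133). Mcm2, of the replicative helicase, rose in experiment A (1.21 ± 0.23, adjusted p = 0.000815) and in females on day 29 (1.08 ± 0.28, adjusted p = 0.00813).

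Of 4 kinases tested, 1, 0, 1, 0 and 1 rose, in each case Cdk1, the partner of the B cyclins. Cdk1 in females on day 29 went from 1.07 ± 0.459 to 10.0 ± 3.91 CPM (3.23 ± 0.48, adjusted p = 9.04e-05), in males on day 29 the log2 fold change was 3.78 ± 0.73 and in experiment A 1.66 ± 0.62. Only 1 of the 5 treated rats of experiment A lay above every control. Cdk2, the partner of cyclins E and A, had log2 fold changes between -0.48 (experiment A, adjusted p = 0.00424, under the fold threshold) and 0.24, and Cdk6 between -0.40 and -0.08. Of 6 CDK inhibitors tested, 3, 0, 3, 0 and 3 rose. Cdkn2c, an inhibitor of CDK4 and CDK6, and Cdkn3, a phosphatase that acts on CDK1 and CDK2, rose in all 3 of those data sets, at 0.72 to 1.97 and 1.47 to 3.24 on the log2 scale.

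Cdkn1a, which encodes p21, was called in females on day 29, from 19.6 ± 9.75 to 90.2 ± 35.9 CPM (2.20 ± 0.53, adjusted p = 0.00485), and had a log2 fold change of 1.74 ± 1.02 in experiment A (adjusted p = 0.202). Of 7 genes that switch CDKs on or off by phosphate or bind them (CKS), 3, 0, 3, 0 and 4 rose. Pkmyt1, an inhibitory kinase of CDK1, rose in experiment A (1.42), males on day 29 (1.77) and females on day 29 (2.19), and Cdc25c, a phosphatase that activates CDK1, in experiment A (1.13) and females on day 29 (0.86). Cdc25b rose in males on day 29 (2.01), a call that was lost when replicate 3 at 1500 mkd alone was left out.

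Of the pocket proteins and E2F factors, 9 were tested in males and 10 in females, and 2, 0, 1, 0 and 2 rose while 1 fell. E2f1, an activator of S phase genes, rose in experiment A (1.35), males on day 29 (1.43) and females on day 29 (2.05). Rbl1, which encodes the pocket protein p107, rose in experiment A (1.29), and Tfdp2, an E2F partner, fell there (-0.62). Of 9 genes of cyclin destruction, 5, 0, 6, 0 and 5 rose. These include Cdc20, the activator of the ligase APC/C that marks the B cyclins for degradation (1.81, 3.54 and 2.43 in the 3 data sets), its E2 enzyme Ube2c (1.92, 3.79 and 3.41) and the checkpoint kinase Bub1b (1.72, 3.49 and 2.73).

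Without the 2 libraries of lowest correlation in each data set, an alternative chosen after seeing the data, fewer genes of the lists rose, and the shares of all genes were 7.48%, 0.361%, 6.30%, 0.0173% and 2.60% in the same order. The genes of replication and division then numbered 1 (Mcm2), 0, 0, 0 and 2 (Mki67 and Top2a), and the kinases 0, 0, 1, 0 and 1, in both cases Cdk1. The CDK inhibitors numbered 0, 0, 2, 0 and 2, Cdkn3 in both and Cdkn2c in females on day 29, and the genes of CDK activation and CKS 2, 0, 2, 0 and 2, Pkmyt1 in all 3. E2f1 in females on day 29 was the 1 gene of the pocket proteins and E2F factors that was called. The genes of cyclin destruction numbered 1, 0, 2, 0 and 4, with Cdc20 and Ube2c in males and females on day 29. The calls of Cdk1, Cdkn2c, Cdkn3, E2f1, Rbl1, Tfdp2, Cdc20, Ube2c and Bub1b in experiment A given above were thus lost without its replicates 2 and 4. In males on day 29 those of Cdkn2c, E2f1 and Bub1b were lost, and in females on day 29 those of Mcm2, Cdkn1a and Cdc25c.

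Among rats of the same group, the late cyclins rose and fell together. Over the deviations of the rats of all 29 groups from their group means, on the log2 scale, Ccna2 and Ccnb1 had a Pearson's r of 0.92, Ccnb1 and Ccnb2 of 0.90, and Ccna2 and Ccnb2 of 0.89. Spearman's rho for these pairs was 0.90, 0.87 and 0.86, and without replicate 3 of the males at 1500 mkd on day 29 r was 0.90, 0.88 and 0.87. Ccnf followed them less closely (r = 0.69 to 0.73). Ccnd1 was nearer to Ccna2 (r = 0.51) than to the other D cyclins, Ccnd2 (0.25) and Ccnd3 (-0.13), and Ccnd3 was negative with all 8 others (-0.10 to -0.30). Ccne1 and Ccne2 had an r of 0.36 with each other. The rats of a pair of values share a library and its depth and RNA composition, so these are descriptions with no test.

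**Figure D5:**
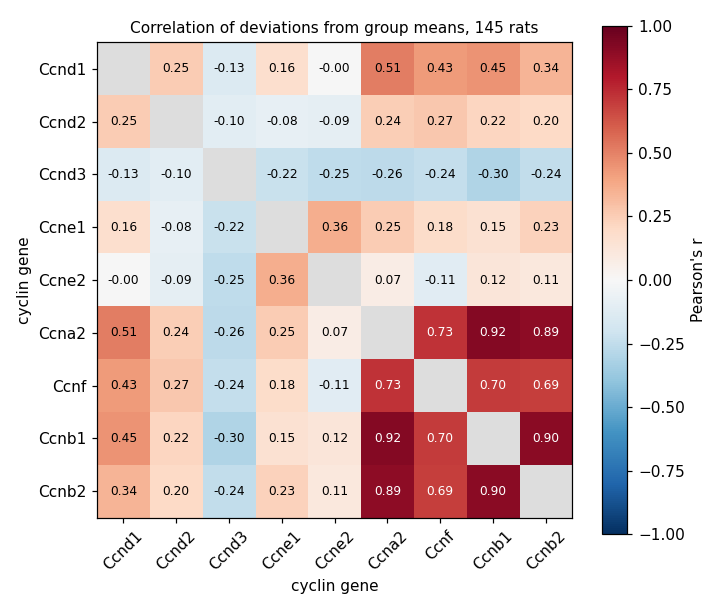
Pearson's r between the deviations of 2 cyclins from their group means (log2 CPM) over the 5 rats of each of 29 groups, with red for positive and blue for negative values. Ccna2, Ccnb1 and Ccnb2 form a block at 0.89 to 0.92, Ccnf joins it at 0.69 to 0.73, and the row of Ccnd3 is negative throughout.

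The 5 genes whose deviations were most like those of each cyclin, among the 11066 tested in every data set, differed from cyclin to cyclin. Ccnb1 was followed by Cdk1 (r = 0.95), its kinase, then by Kif2c, Knstrn, Prc1 and Kif22 (0.93 to 0.94), which serve the spindle and the midzone. Ccna2 was followed by Prc1 (0.94), Mki67, Kif22, Top2a and Kif2c (0.92 to 0.93), and Ccnb2 by Kif2c (0.92), Pttg1 (which encodes securin), Cdk1, Mki67 and Ccnb1 (0.90 to 0.91). For Ccnf they were Cdc20 (0.76), Kifc1, Prc1, Foxm1 and Kntc1 (0.75 to 0.76).

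Ccnd1 was most like the helicase genes Mcm6 (0.63), Mcm3 (0.60) and Mcm5 (0.57), with Mybl1 (0.58) and Kif18b (0.56). Ccnd2 was most like Flna (0.69), Cd93 (0.67), Msn (0.66), Sept11 (0.66) and Cdh5 (0.64), of which Cd93 and Cdh5 are genes of endothelial cells. Ccne1 stood beside Per3 (0.72), Ciart (0.71), Tef (0.69) and Gcnt2 (0.68), the first 3 being genes of the circadian clock and its output, and Cdt1 (0.71), a licensing factor of replication origins. The animals of experiment B were killed in a randomized order, per the study's methods. The part of the time of killing in the level of Ccne1 was not tested. Ccne2 was most like the splicing genes Luc7l3 (0.58) and Rbm25 (0.56), with Haus3 (0.58), Ccar1 (0.55) and Hnrnph1 (0.55), and Ccnd3 like Fkbp8 (0.57), Macrod1, Mon1a, Pskh1 and Egln2 (0.55 to 0.56).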

How the data were processed

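Liver RNA of 145 rats was sequenced as stranded poly(A) libraries. Per the study's methods, the authors trimmed the reads with Trimmomatic, aligned them to the UCSC Rn6 genome with Bowtie2 and counted them per gene with HTSeq. The deposited values are these raw counts in 5 tables, 1 for each combination of experiment, sex and duration. The versions and the strand setting of the counting were not given in the sources used here, so reads of overlapping antisense genes cannot be told apart. HTSeq's summary lines, which name no gene and took 35.5% to 67.1% of the counts of a rat in experiment B, stayed out of library sizes and tests. No 2 columns were identical.

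Counts were filtered with filterByExpr, scaled by TMM and tested with edgeR 4.0.16 (R 4.3.3, quasi-likelihood F-test), with all dose groups of a data set in 1 fit. P-values were adjusted by Benjamini-Hochberg over all genes tested. The study's criteria were used for calls against control, a |fold change| of at least 1.5 and an adjusted p of at most 0.05. The trend was a linear term in dose. Differences between days, sexes and vehicle controls came from 1 fit of all 120 rats of experiment B, and those between experiments from 1 fit of both sets of males on day 8. DESeq2 1.42.0, other scalings and filters, and fits without single replicates, libraries or doses were alternatives. Likeness was the Pearson correlation of log2 CPM (prior count 2) after subtracting group means. The scripts were tested on simulated data.

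The 9 members and the gene lists were chosen with earlier results of these data known. Named were the 9 members, in each pathway list the 3 genes with the highest mean absolute log2 fold change over the 5 highest-dose comparisons, and for each member the 5 genes of highest likeness. Replicate numbers are shared by the groups, but correlations of the deviations of same-numbered rats, control against the highest dose, ran from -0.25 to 0.34, so the numbers were not taken to pair the rats.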

Additional observations from a re-analysis of the deposited data

Results flagged for a closer look

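A rat was picked out where its level lay far from the other 4 of its group (Dixon's test at the 95% level, on log2 CPM). Of the 261 combinations of 9 cyclins and 29 groups 17 were picked out, and chance alone picks out about 1 in 20 groups. Among the late cyclins at the highest doses, replicate 4 at 1000 mkd in experiment A was high for Ccna2 (9.93 CPM, the others 4.11 to 5.15) and for Ccnb1 (25.7, the others 9.68 to 11.4). Replicate 4 of the females at 1500 mkd on day 8 was high for Ccnb1 (13.2 CPM, the others 3.28 to 4.87). Replicate 5 of the females at 1500 mkd on day 29 was low for Ccnf (2.38 CPM, the others 6.91 to 7.96) and for Ccnb2 (1.19, the others 4.05 to 4.58). At 300 mkd in females on day 29, replicate 2 was high for Ccna2 (2.96 CPM, the others 0.492 to 0.806) and for Ccnf (5.16, the others 1.76 to 2.29).

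Ccnf also stood out in replicate 2 of the females at 750 mkd on day 29 (4.72 CPM, high) and in replicate 1 of the males at 1000 mkd on day 29 (4.91, low). Ccnd1 was high in replicate 4 at 100 mkd in experiment A (106 CPM, the others 43.5 to 52.4). Ccnd2 was low at 500 mkd on day 8 in replicate 1 of the males (1.08 CPM) and in replicate 1 of the females (2.06). Ccnd3 was low in replicate 2 of the males at 1000 mkd on day 8 (19.2 CPM) and in replicate 5 of the females at 750 mkd on day 8 (19.1). Ccne1 was low in replicate 3 at 300 mkd in experiment A (1.39 CPM) and in replicate 3 of the females at 500 mkd on day 8 (1.13), and Ccne2 in replicate 4 of the females at 750 mkd on day 8 (4.47). Replicate 3 of the males at 1500 mkd on day 29, the highest rat of its group for Ccna2, Ccnf, Ccnb1 and Ccnb2, was not picked out on this scale, where the gap to the next rat was 0.582 to 0.673 of the group's range, under the critical value for 5 rats. On the CPM scale that share was 0.866 to 0.957. By its title, this library comes from the rat that the study set apart as an outlier with Grubbs's test. The study reported far higher Ki67 labeling of hepatocytes, its measure of proliferation, in that rat and left it out of its dose modeling. For that rat it reported no increase in the other endpoints of liver injury. These were the plasma enzymes ALT and AST, the mitotic index of hepatocytes and liver weight. The cause of these values was not tested.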

How the results depend on the processing

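Ccna2 and cyclins of similar low level rest on few reads, 6 to 1889 per rat for Ccna2, and calls near the threshold moved with single rats and settings; where no value is given, the cause was not tested. With DESeq2, 2 cyclins were called at 1500 mkd in males on day 8 (2 over all doses) and 1 at 1000 mkd in males on day 29. In females on day 8 it called 2 at 1500 mkd and 10 combinations of cyclin and dose. Cyclin trends by DESeq2 numbered 3 in males on day 29 and 4 in females on day 8. All genes called by DESeq2 at these 3 doses numbered 174, 641 and 341, against 20, 311 and 81 by edgeR. Its trends over all genes numbered 2984 and 875, against 2765 and 626 by edgeR. With at least 10 counts in every rat, 8 cyclins were tested in females. Females on day 8 then had 3 called combinations, 0 calls at 1500 mkd and 1 trend, and females on day 29 had 1 call at 1000 mkd. The genes called were 55 of 9992 at 1500 mkd on day 8 and 140 of 10040 at 1000 mkd on day 29. Trends over all genes in females on day 8 numbered 484. With the control and tested dose alone in the fit, males on day 29 had 1 cyclin call at 1500 mkd and 4 at 1000 mkd. Females on day 8 had 0 at 1500 mkd. All genes called in these fits numbered 210, 790 and 11, against 554, 311 and 81 with all doses in the fit. On a log2(dose + 100) scale cyclin trends numbered 1 in males and 5 in females on day 8, against 129 of 11304 and 753 of 11497 genes. Without the highest dose group the cyclin trends numbered 0 in experiment A, 0 in males on day 8, 4 in females on day 8 and 4 in females on day 29. The genes with a trend were then 1 of 11077, 1 of 11242, 513 of 11419 and 1040 of 11334. In experiment A 2 slopes changed sign, Ccnd2 to -1.17 (adjusted p = 0.999) and Ccnd3 to 0.0426 (adjusted p = 0.999). Without a filter on low counts, 1 cyclin was called between the vehicle controls of both sexes on day 8. All genes called there numbered 932, against 944 with the filter.

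With the replicate block, 0 cyclins were called at 1500 mkd in females on day 8 and 1 between the sexes in the vehicle controls on day 8. All genes called there numbered 3 and 941, against 81 and 944 without the block. The other counts of cyclin calls stayed within 1.5 times. The numbers are shared only as numbers, since the pair correlations within a data set were not all above 0.1.

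Further alternatives were chosen after seeing the data. Without the 2 libraries of lowest correlation in each data set, 1 cyclin was called in experiment A, 2 at 1500 mkd and 3 at 1000 mkd in males on day 29, 0 at 1500 mkd in females on day 8, and 3 at 1500 mkd in females on day 29 (5 over all doses). All genes called in these comparisons numbered 851, 711, 805, 2 and 300. Cyclin trends then numbered 3 in males on day 29 and 0 in females on day 8, against 3147 and 408 genes in all. The log2 ratio of Ccnb1 to Ccnd1 at 1500 mkd minus control in males on day 29 was 1.03. Without replicate 3 of the males at 1500 mkd on day 29, 3 cyclin trends were called in that data set, against 3081 of 11303 genes. In response 2 cyclins differed between the sexes on day 29, against 8.90% of all genes, Ccna2 with a reversed difference of 2.29.

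Leaving out replicates in turn was done for a replicate number in every group (counts over all doses, trends and differences) and, at single doses, also for 1 rat of the control or of that dose, so that the ranges rest on different sets of fits. It gave 2 to 6 calls in experiment A at the highest dose and over all doses (2 without replicate 4), 0 to 2 in males on day 8 (2 without control replicate 5), 0 to 4 at 1500 mkd and over all doses in males on day 29 (0 without the rats of replicate 3), and 0 to 1 at 1000 mkd there (1 without replicate 1 or without replicate 4 of that dose). Females on day 8 had 0 to 2 at 1500 mkd (2 without replicate 1 or 5 of that dose, and 0 without any replicate number), 0 to 4 at 1000 mkd (0 without replicate 1, 3 or 5) and, by replicate number alone, 0 to 3 over all doses, and females on day 29 had 0 to 3 at 1000 mkd and 4 to 8 over all doses (4 without replicate 4). Trends ranged from 0 to 3 in males on day 8 (0 without replicate 4), 2 to 5 in males on day 29 (2 without replicate 3) and 0 to 4 in females on day 8 (0 without replicate 2, 3 or 4). Differences between experiments ranged from 0 to 1 (1 without replicate 1), and calls between the vehicle controls of both sexes from 0 to 4 on day 8 and 0 to 2 on day 29. The share of all genes was computed only without a replicate number at the highest dose. It ran from 12.3% to 24.2% in experiment A, 0% to 0.362% in males on day 8 and 1.27% to 3.61% in males on day 29. In females it ran from 0% to 0.800% on day 8 and from 8.07% to 13.4% on day 29. Of the 5 genes most like Ccnd3, 1 was shared without the highest dose groups and 3 with Spearman's correlation.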

Other observations

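Of the cyclins outside the D, E, A, B and F groups, 11 were tested at the highest doses, and 1 rose and 1 fell in experiment A, where 21.4% of all genes were called, and 0 were called in the other 4 data sets by edgeR, against 0.177%, 4.91%, 0.705% and 13.1% of all genes. Ccng1 was the 1 still called without replicates 2 and 4 at 1000 mkd, against 7.48% of all genes. Ccng1, a target of p53, rose in experiment A from 41 ± 7.39 to 75.5 ± 20.0 CPM (0.88 ± 0.17 log2, adjusted p = 0.000842), and Ccnl2, a cyclin of splicing, fell there from 74 ± 4.92 to 48.5 ± 8.55 CPM (-0.61 ± 0.13, adjusted p = 0.00151). Ccnt1, a subunit of the elongation factor P-TEFb, had log2 fold changes between -0.69 and 0.56 over the 5 data sets without a call.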
